A study of Hemigymnus melapterus and Thalassoma lunare and Coris batuensis with 46 samples.

Results

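The comparison set Hemigymnus melapterus against Thalassoma lunare, 2 wrasse species that the labels both call facultative cleaners. Members were taken by the species named in each sample's label, with each library taken as 1 fish. They make up 18 of the 46 libraries of the series, 9 fish of each species. All were females, untreated as far as the labels say, and no label gives an age. The labelled tissue was a 300 µm slice of the forebrain, the second most rostral one, taken after 6 to 28 minutes between capture and death. Libraries were made by 3′ tag sequencing, in which reads come from the poly-A end of a transcript, so that a count stands for transcript number and not for transcript length. Of the 10 libraries labelled for each species, 1 was left out: Hemigymnus melapterus 4, of low complexity, and Thalassoma lunare 4, whose counts lay nearest to another species, Halichoeres melanurus. Species and every condition of capture that goes with a species cannot be told apart here, and replicate fish stand for their own species alone.

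Wrasses are a large family of reef fishes, and in several of them some individuals or life stages pick parasites from the skin of other fishes. A facultative cleaner does this now and then and also feeds otherwise, whereas an obligate cleaner depends on it. The sampled slice held the pallial zones Dl and Dm of the teleost forebrain, which are studied for their roles in spatial and emotional learning, with parts of the septum and striatum. Both species share the label of facultative cleaner. Their contrast shows how far forebrain transcript counts differ between species when the label of cleaning does not. Identifiers were common to both species, so these counts reflect alignment as well as abundance.

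For each fish 2 sets of counts were available. One gives reads per transcript with an ENSONIT identifier, and the other gives reads per gene with an Ldim_g identifier. The files do not pair either kind of identifier with a gene name or with the other kind. For this reason the transcripts below are described by level and pattern, what they encode is not stated, at most 2 identifiers per direction are given, and the labelled tissue could not be checked against marker genes. In bulk tissue, fewer cells of a type and less RNA per cell cannot be told apart.

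The Hemigymnus libraries were shallower. Their ENSONIT counts ranged from 18301 to 38807 per fish, with a median of 26004, and those of Thalassoma from 36350 to 49935, with a median of 42988. The means, 26996 ± 7518 (SD, n = 9) and 43303 ± 5009 (SD, n = 9), differed beyond the spread among fish (two-sided exact permutation p = 0.000288, and 0.000329 after Benjamini-Hochberg adjustment over the 8 measures of libraries tested). A single count therefore stood for 68.8 CPM in the median Hemigymnus fish and for 45.1 CPM in the median Thalassoma fish, where CPM, the usual depth-scaled unit for counts, is taken relative to the library's total over the tested features.

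Of the well-measured transcripts, 52.2% differed in counts between the forebrains of the cleaner species, in both directions. Of 22683 ENSONIT transcripts with a count in any of the 18 fish, 534 had enough counts to be tested, and these held 54.8% of all counts. A transcript that is high in 1 species alone passes this filter through that species, so the shares that follow describe the tested transcripts and not the whole transcriptome. By the quasi-likelihood test of edgeR, 279 of the 534 had a Benjamini-Hochberg adjusted p below 0.05. Among them 131 (24.5%) were higher and 148 (27.7%) lower in Hemigymnus than in Thalassoma. Scaling between libraries centres the fold changes near 0, so the split between directions is set in part by it, and upper quartile scaling gave 149 higher and 141 lower. The median log2 fold change was -0.08, with quartiles of -0.54 and 0.41. In 118 transcripts (22.1%) the CPM of the 9 fish of one species did not overlap that of the other 9. Hemigymnus lay above in 57 of these (10.7%) and Thalassoma in 61 (11.4%).

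**Figure D1:**
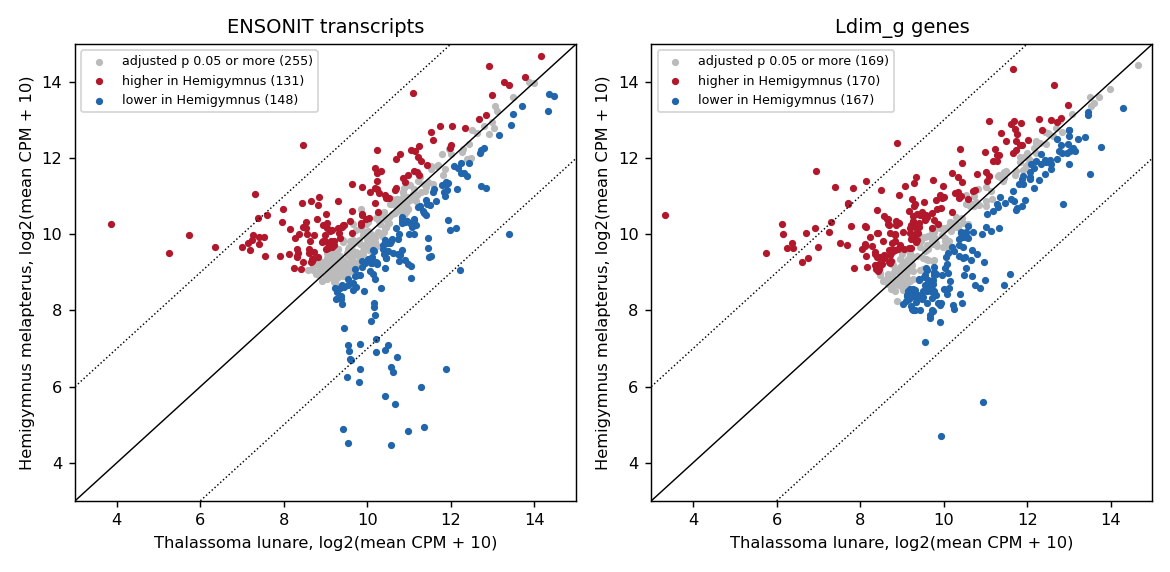
Mean level in Hemigymnus melapterus (vertical axis) against Thalassoma lunare (horizontal axis), both as log2(mean CPM + 10) over 9 fish each, for 534 ENSONIT transcripts and 506 Ldim_g genes. Each point is 1 feature, coloured points have an edgeR adjusted p below 0.05, the solid line marks equal levels and the dotted lines mark 8-fold differences; the ENSONIT panel has more points far below the lower dotted line and the Ldim_g panel more above the upper one.

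Named transcripts were picked only from those past the threshold without overlap between the species. Their separation was therefore set by this rule. The transcript with the largest excess in Hemigymnus, among those with at least 10 counts in the lower species, was ENSONIT00000012176.1. Its lowest, median and highest CPM were 3669, 5258 and 7033 in Hemigymnus. In Thalassoma they were 137, 415 and 469.5 CPM. The lowest Hemigymnus fish stood 7.82 times above the highest Thalassoma fish. Means were 5188 ± 1077 CPM (SD, n = 9) and 340.0 ± 130.1 CPM (SD, n = 9), from 698 and 70 raw counts. On the log2 scale the difference was 3.90 with SE 0.18 (adjusted p = 9.24e-18 by edgeR).

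ENSONIT00000016607.1 was the most abundant transcript that differed at least 2-fold and was higher in Hemigymnus. It ran from 19279 through a median of 21065 to 24648 CPM in Hemigymnus. In Thalassoma it ran from 5893 through 7758 to 9053 CPM, below all 9 Hemigymnus fish as the rule required. The means of 21742 ± 2075 and 7644 ± 1138 CPM (SD, n = 9 each) rested on 3044 and 1564 counts. The difference was 1.51 with SE 0.095 on the log2 scale (adjusted p = 9.64e-15 by edgeR).

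In the other direction, ENSONIT00000009162.1 came close to absence in Hemigymnus. Its CPM in Hemigymnus had a median of 79.2 and a highest value of 190.7, and 3 of the 9 fish had no count. All 9 Thalassoma fish lay between 3113 and 4799 CPM, with a median of 3584. The lowest Thalassoma fish was 16.3 times above the highest Hemigymnus fish. Means were 78.2 ± 72.7 and 3755 ± 584 CPM (SD, n = 9 each), from 11 and 773 counts, a log2 difference of -5.45 with SE 0.26 (adjusted p = 9.24e-18 by edgeR).

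ENSONIT00000006853.1, by contrast, was among the most abundant transcripts in both species. It had the highest mean level among those at least 2-fold lower in Hemigymnus without overlap. Its lowest, median and highest values were 8025, 9763 and 10963 CPM in Hemigymnus. They were 18633, 20794 and 23598 CPM in Thalassoma, with no overlap, as the rule required. Means were 9649 ± 1079 and 20504 ± 1900.1 CPM (SD, n = 9 each), from 1369 and 4224 counts. The log2 difference came to -1.08 with SE 0.087 (adjusted p = 3.17e-12 by edgeR).

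**Figure D2:**
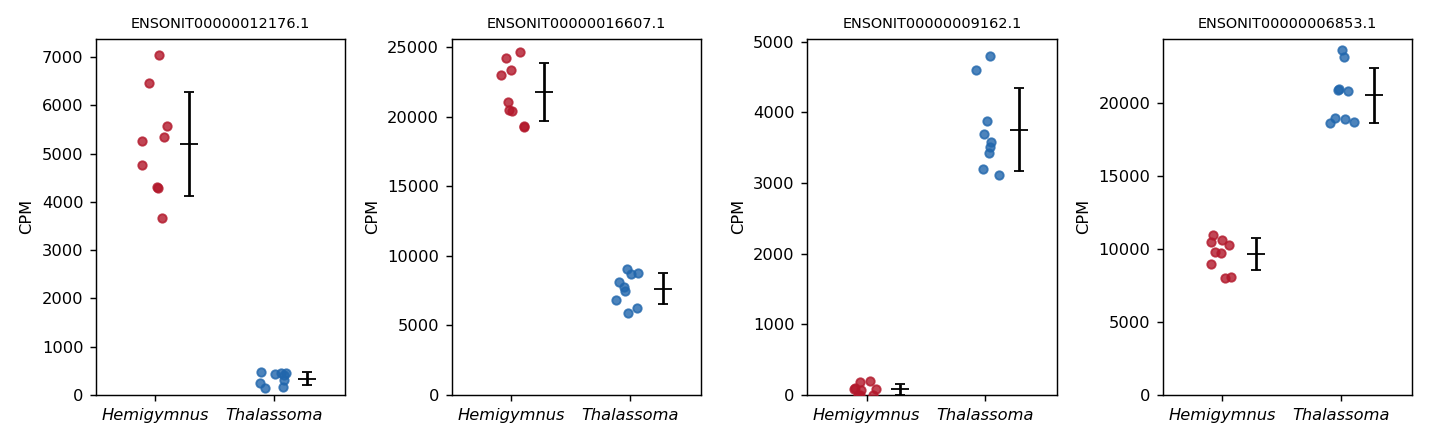
CPM (vertical axis, linear, from 0) of 4 ENSONIT transcripts in each of 9 Hemigymnus and 9 Thalassoma fish. Points are fish and the bar beside them is the mean ± SD. The transcripts were picked for no overlap between the species. ENSONIT00000009162.1 lies at or below 190.7 CPM in every Hemigymnus fish and at or above 3113 CPM in every Thalassoma fish.

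Larger folds occurred where the lower species had almost no counts. One ENSONIT transcript had 171 counts over the Hemigymnus fish, at 972 to 1520 CPM, and a single count over all 9 Thalassoma fish. The ratio of depth-scaled counts was 254, with an exact 95% binomial interval of 45.0 to 10084. Another had 536 counts over the Thalassoma fish, at 1886 to 3078 CPM, and 3 counts over the Hemigymnus fish, a ratio of 120.4 with an interval of 41.0 to 585. These intervals were taken on counts summed over the 9 fish of each species, so they cover counting error only and leave out the spread among fish. They may be too narrow even for that, since the labels mention no molecular identifiers and copies made by PCR may be counted more than once.

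In the main edgeR fit to 18 libraries, the differences were balanced at 2-fold and became lopsided at large size. At 2-fold or more, 128 of the 534 ENSONIT transcripts passed the edgeR threshold (24%), 64 higher in Hemigymnus and 64 lower (12% each). Of these 128, 100 had no overlap between the fish of the species, where 118 (22.1%) of all 534 had none. The 2-fold split moved with the setting, from 62 higher and 39 lower with all 20 libraries to 610 and 1148 without a filter. It stayed near even with DESeq2 size factors (65 and 62) and in the fit to all 5 species (94 and 90). At 4-fold or more the main fit gave 22 higher and 33 lower. At 8-fold or more there were 7 higher (1.31%) and 21 lower (3.93%), and at 32-fold or more 1 and 7. All 7 and all 21 had no overlap between species. Picking large differences in the same fish favours such separation, here and among the 128, so it adds no support. At 8-fold or more, the lower side was also larger with other size factors (7 and 21 with those of DESeq2, 8 and 20 with upper quartile scaling) and with all libraries thinned to 18301 counts (2 and 7). The same held in the fit to all 5 species (12 and 22 of 701 tested). It also held with no filter on low counts (163 and 413 of 22683) and with a mean of at least 5 counts (16 and 39 of 916). These last 2 settings work on raw counts, and the Thalassoma libraries were deeper. Transcripts high in Thalassoma can therefore enter more readily, so these 2 settings add no support. The lower side was not the larger by the DESeq2 Wald test (189 higher and 161 lower), which changed both the test and the filter. Nor was it with both left-out libraries put back (2 and 2).

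The Ldim_g counts, repeated with the same fish and settings, gave a larger share of differing features and a tail on the opposite side. Of 506 genes tested, 337 (66.6%) passed, 170 higher (33.6%) and 167 lower (33%) in Hemigymnus, or 148 and 195 with upper quartile scaling. Of these, 157 (31%) differed at least 2-fold, with 89 higher (17.6%) and 68 lower (13.4%). At 8-fold or more there were 17 higher (3.36%) and 2 lower (0.395%), where the ENSONIT counts had 7 and 21. The groups did not overlap in 139 genes (27.5%), with Hemigymnus above in 81 (16%) and Thalassoma above in 58 (11.5%). With upper quartile scaling the 2-fold counts turned to 73 higher and 87 lower, while the 8-fold counts stayed lopsided at 14 and 2. Thinned to 19597 counts, 6 genes were at least 8-fold higher and 1 lower. The higher side was also larger by the DESeq2 Wald test (188 and 113), in the fit to all 5 species (28 and 12), with a mean of at least 5 counts (27 and 20) and with both left-out libraries put back (3 and 0). With no filter on low counts the numbers were 225 and 217. No test compared the sides of the tails between the sets, because identifiers cannot be matched across them.

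**Figure D3:**
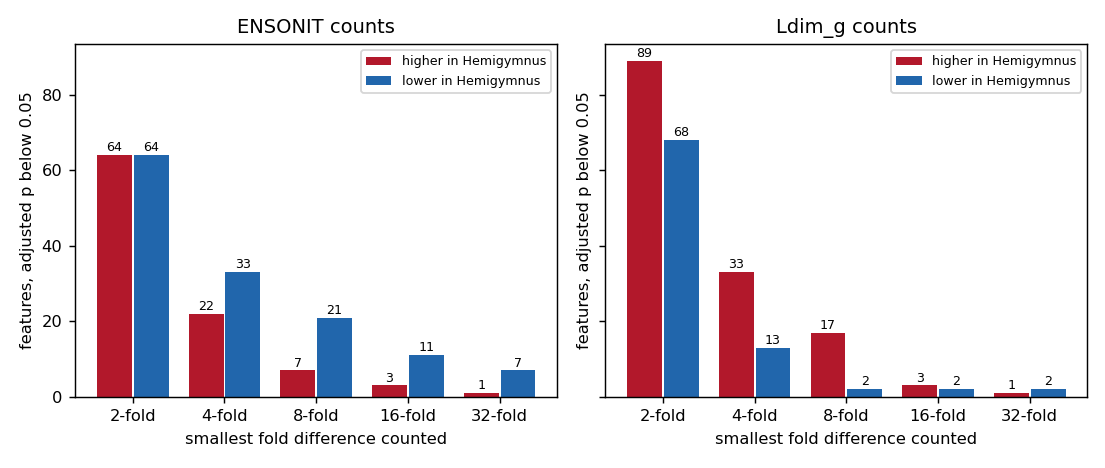
Number of features with an edgeR adjusted p below 0.05 (vertical axis) by the smallest fold difference counted (horizontal axis), for ENSONIT counts on the left and Ldim_g counts on the right; each bar includes the bars of larger folds. At 8-fold the ENSONIT bars read 7 higher and 21 lower in Hemigymnus, and the Ldim_g bars 17 higher and 2 lower.

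By the rule used for the ENSONIT transcripts, the Ldim_g gene with the largest excess in Hemigymnus had 563 counts there and 26 in Thalassoma. Its CPM ran from 1978 to 4151 in Hemigymnus, with a median of 3559, and from 0 to 208 in Thalassoma, with a median of 112.7. The log2 difference came to 4.78 with SE 0.24 (adjusted p = 8.43e-17 by edgeR). The most abundant gene at least 2-fold higher in Hemigymnus ran from 19559 to 24225 CPM there and from 2477 to 3927 CPM in Thalassoma. Its log2 difference was 2.70 with SE 0.088 (adjusted p = 3.36e-22 by edgeR). No overlap between the species was a condition for picking both genes.

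On the lower side, among genes with at least 10 counts in Hemigymnus, the gene with the largest deficit there ran from 92.0 to 631 CPM in Hemigymnus and from 1877 to 3918 CPM in Thalassoma. The log2 difference was -2.75 with SE 0.21 (adjusted p = 8.80e-13 by edgeR). The most abundant gene at least 2-fold lower in Hemigymnus ran from 3760.3 to 5997 CPM there and from 10838 to 16153 CPM in Thalassoma. Its log2 difference was -1.48 with SE 0.094 (adjusted p = 1.79e-14 by edgeR). Both genes were also picked for no overlap between the species. One further gene had 247 counts over the Hemigymnus fish and none in any Thalassoma fish, which makes it at least 107-fold higher when 3 counts over the Thalassoma fish are taken as the floor.

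Alignment differed between the species in the Ldim_g set, and these values stand beside every count above. The share of reads left unaligned was 51.4% ± 1.16 in Hemigymnus and 61.1% ± 1.39 in Thalassoma (SD, n = 9 each), with ranges of 48.8% to 52.5% and 58.2% to 62.5%. The exact permutation test gave p = 4.11e-05, the smallest that 9 against 9 fish allow (adjusted p = 6.58e-05 over 8 measures). Reads that aligned outside genes made up 40.9% ± 1.18 in Hemigymnus and 32.4% ± 1.10 in Thalassoma, and reads in genes 5.14% ± 0.431 and 4.11% ± 0.272 (SD, n = 9 each, exact permutation adjusted p = 6.58e-05 for each). Reads aligned with too low quality were 2.56% ± 0.147 and 2.36% ± 0.104 (SD, n = 9 each, exact permutation adjusted p = 0.00189). Among aligned reads alone, the share in genes was 10.6% ± 0.841 in Hemigymnus and 10.6% ± 0.421 in Thalassoma (SD, n = 9 each). The ENSONIT yield was also close, at 4.79 ± 0.202 and 4.71 ± 0.169 counts per 100 reads listed in the Ldim_g set (SD, n = 9 each). This yield assumes that both sets came from the same reads, which is not stated. The part of alignment in the tails of either set was not tested.

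The species also differed in how counts were spread over transcripts. At an equal total of 18301 counts, 4867 to 5570 ENSONIT transcripts were detected per Hemigymnus fish and 5583 to 5967 per Thalassoma fish. Means were 5322 ± 224 and 5847 ± 128.9 (SD, n = 9 each, exact permutation adjusted p = 6.58e-05), and the ranges did not overlap. The 50 most abundant transcripts of each library took 25.4% ± 1.42 of the counts in Hemigymnus and 22.8% ± 0.418 in Thalassoma (SD, n = 9 each, exact permutation adjusted p = 6.58e-05). Neither range overlapped between the species. The top-50 share was taken at the deposited depth, which differed between them.

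**Figure D4:**
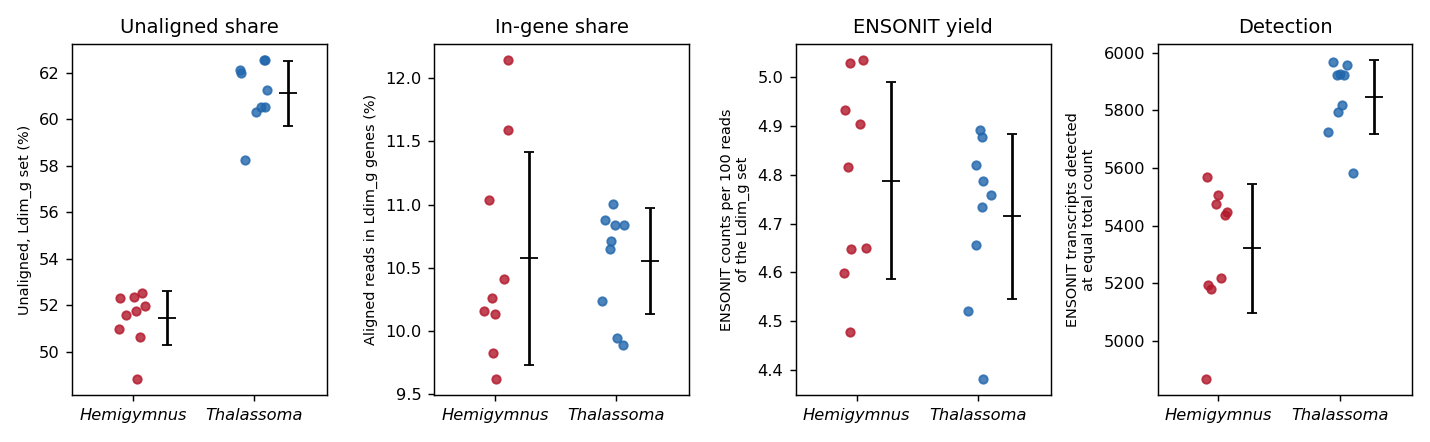
From left to right, the panels show the percent of reads unaligned in the Ldim_g set and the percent of aligned reads in Ldim_g genes. Next come ENSONIT counts per 100 reads of the Ldim_g set, which assumes that both sets came from the same reads. Last are ENSONIT transcripts detected at 18301 counts. Values are for each of 9 Hemigymnus and 9 Thalassoma fish. Points are fish, bars are mean ± SD and the axes do not start at 0; the species are apart in the first and last panels and overlap in the middle panels, where the means are 10.6% against 10.6% and 4.79 against 4.71.

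Levels of the same transcripts were also read in the remaining 3 species of the series. These transcripts passed the filter through the member of the pair in which they are high, and picking large differences in this way favours other species lying on the low side. The counts below are therefore a description and do not show which species stands apart. The size limit of 8-fold was chosen after the values were seen, but the levels in Halichoeres melanurus (8 fish without the one nearest to Thalassoma), Coris batuensis (9 fish) and Labrichthys unilineatus (8 fish) took no part in choosing the transcripts. Of the 21 ENSONIT transcripts at least 8-fold lower in Hemigymnus, 16 (76.2%) had all 3 other species on the Hemigymnus side of the midpoint between the pair on the log2-CPM scale, and none had all 3 on the Thalassoma side. Halichoeres lay on the Hemigymnus side in 21 of the 21, Coris in 20 and Labrichthys in 17. The median level of these 21 was 1402 CPM in Thalassoma, against 69.4 in Hemigymnus, 78.7 in Halichoeres, 94.9 in Coris and 133 in Labrichthys. In the low species such levels rest on few counts per fish.

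The 7 transcripts at least 8-fold higher in Hemigymnus were likewise low in most other species. In 5 of them (71.4%) all 3 other species were on the Thalassoma side, and in none were all 3 on the Hemigymnus side. Their median level was 1168 CPM in Hemigymnus, and 66.3 in Thalassoma, 88.2 in Halichoeres, 69.9 in Coris and 57.9 in Labrichthys. In the remaining 2, 1 other species lay on the Hemigymnus side, Coris in 1 and Halichoeres in the other. The latter was ENSONIT00000012176.1. At the scaling used for all 5 species it averaged 4907 ± 1084 CPM in Hemigymnus and 3398 ± 1105 in Halichoeres. Coris followed with 1333 ± 370.5, Thalassoma with 314 ± 116 and Labrichthys with 94.9 ± 64.8 CPM (SD over 8 or 9 fish). Its levels thus formed a graded series over species rather than 1 high species.

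Among all transcripts with differences of 2-fold or more the picture was mixed. Of the 64 that were lower in Hemigymnus, 27 (42.2%) had all 3 other species on the Hemigymnus side and 12 (18.8%) on the Thalassoma side. Of the 64 that were higher, the numbers were 19 (29.7%) and 17 (26.6%). ENSONIT00000009162.1 was at 62.6 CPM in Coris, 73.3 in Halichoeres and 155 in Labrichthys, near the 73.7 CPM of Hemigymnus and far from the 3495 CPM of Thalassoma. ENSONIT00000006853.1 went the other way, at 14698 CPM in Coris, 18329.6 in Halichoeres and 19526.5 in Labrichthys, all above the 9099 CPM of Hemigymnus. ENSONIT00000016607.1 was highest in Hemigymnus, at 20522.5 CPM, with 9254 in Halichoeres, 9073 in Coris, 7102 in Thalassoma and 3194 in Labrichthys.

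**Figure D5:**
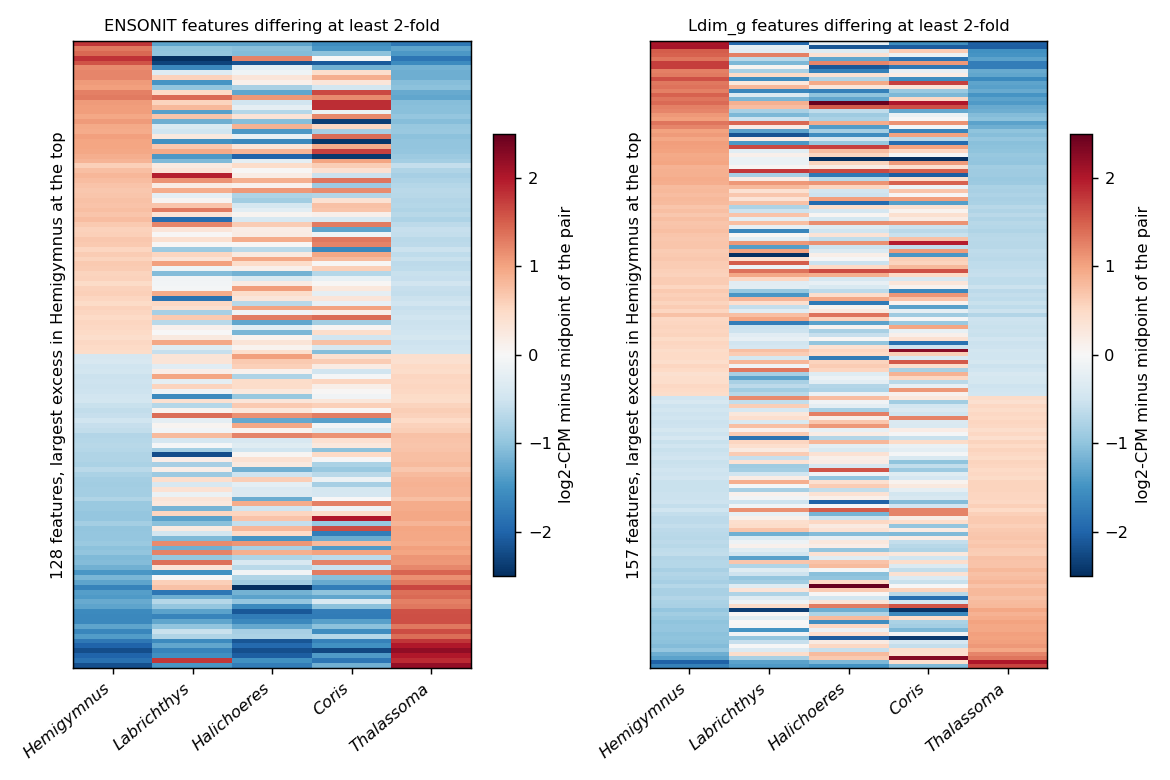
Levels in 5 species (columns) of the 128 ENSONIT transcripts and 157 Ldim_g genes (rows) that differed at least 2-fold between Hemigymnus and Thalassoma, ordered by their log2 fold change with the largest excess in Hemigymnus at the top. Colour is the species mean of log2-CPM minus the midpoint of the pair, red above and blue below; at the bottom of the ENSONIT panel most rows are red in the Thalassoma column alone.

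In the Ldim_g counts the 17 genes at least 8-fold higher in Hemigymnus had mixed levels elsewhere. For 7 of them (41.2%) all 3 other species lay on the Thalassoma side and for 5 (29.4%) on the Hemigymnus side, and the difference from the ENSONIT set was not tested. Their median level was 1194 CPM in Hemigymnus and 105 CPM in Thalassoma, with 373, 406 and 415 CPM in Halichoeres, Labrichthys and Coris. The most abundant gene at least 2-fold higher in Hemigymnus was low in Thalassoma alone. It averaged 3003 ± 432 CPM there (SD, n = 9). Halichoeres had 14675 ± 1698, Coris 16828 ± 1249, Hemigymnus 19591 ± 1258 and Labrichthys 20882 ± 1415 CPM (SD over 8 or 9 fish).

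The left-out libraries can be read against the same transcripts. The 21 ENSONIT transcripts at least 8-fold lower in Hemigymnus together took 204 to 271 of every 10000 counts in the 9 Thalassoma fish and 12.7 to 19.9 in the 9 Hemigymnus fish. In the library labelled Thalassoma lunare 4 they took 21.3 per 10000 (103 counts), within the 13.5 to 28.6 of the 8 Halichoeres fish. Since they were low in Hemigymnus as well, this value does not single out Halichoeres. The 7 higher transcripts took 20.8 in that library (Halichoeres 9.73 to 37.9). The 17 higher Ldim_g genes took 90.4 (Halichoeres 67.0 to 96.3). The 2 lower Ldim_g genes took 3.10, from 14 counts, outside the 0.539 to 2.37 of Halichoeres and below the 16.5 to 24.0 of Thalassoma. In Hemigymnus melapterus 4 the 21 transcripts took 2.88 per 10000, from 2 counts. The 7 transcripts at least 8-fold higher in Hemigymnus took 61.1 to 91.7 per 10000 in the 9 Hemigymnus fish but 7.21 in Hemigymnus melapterus 4, from 5 counts. That library was thus low in both groups of transcripts. With both libraries put back, 175 of 487 transcripts passed in place of 279 of 534.

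Transcripts passed the threshold at all levels, 52.2% of them over all 534 tested. Of the 50 most abundant tested ENSONIT transcripts, 32 (64%) passed, 16 in each direction. Of these, 8 differed at least 2-fold, where 24% of all 534 passed and did so. In 3 bands of 178 transcripts by mean level, 58.4%, 52.8% and 45.5% passed from the highest band to the lowest. The median standard error of the log2 fold change was 0.14, 0.21 and 0.24 in the same order, so small differences were harder to detect in the lower bands. In the Ldim_g counts 33 of the 50 most abundant genes passed, 12 higher and 21 lower in Hemigymnus. That share of 66% was close to the 66.6% over all 506 tested genes. In 3 bands of Ldim_g genes by mean level, 69.0%, 70.8% and 60% passed from the highest to the lowest. Their median standard errors were 0.12, 0.19 and 0.24, so the share passing did not fall at each step.

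A smaller set of transcripts was measured well enough to show closeness. For 63 of the 534 ENSONIT transcripts (11.8%) the whole 95% interval of the log2 fold change lay between -0.5 and 0.5, and 3 of these 63 passed the threshold all the same. They had a median level of 1989.9 CPM, against 972 CPM over all tested transcripts, and held 21.9% of the tested counts. In the Ldim_g counts 68 genes (13.4%) met the same limit and held 31.3% of the tested counts. For the other transcripts that did not pass, larger differences are within the error.

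The 2-fold differences can also be weighed by the counts they hold. The 64 ENSONIT transcripts at least 2-fold higher in Hemigymnus took 8.93% ± 0.738 of all counts there and 2.62% ± 0.129 in Thalassoma (SD, n = 9 each). The 64 that were at least 2-fold lower took 2.23% ± 0.0950 in Hemigymnus and 7.69% ± 0.310 in Thalassoma (SD, n = 9 each). The 89 Ldim_g genes at least 2-fold higher took 14.5% ± 0.905 of the counts in genes in Hemigymnus and 4.47% ± 0.251 in Thalassoma, and the 68 lower ones 2.97% ± 0.221 and 8.55% ± 0.461 (SD, n = 9 each). These features were chosen on the same counts, so the shares describe their weight and are not a test.

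Fish of a species resembled each other closely. Across the tested ENSONIT transcripts, which are not independent replicates, the log2-CPM of each Hemigymnus fish correlated at r = 0.889 to 0.949 with the mean of the other 8 Hemigymnus fish and at 0.564 to 0.638 with the mean of Thalassoma. For Thalassoma fish the values were 0.934 to 0.968 and 0.611 to 0.650. The filter let in transcripts high in 1 species alone, which can lower the values between species, so the gap is set in part by it. With libraries thinned to equal totals and each species fitted alone, the biological coefficient of variation, the relative spread among fish beyond counting error, was 0.209 in Hemigymnus and 0.148 in Thalassoma. Leaving out each fish in turn gave 0.190 to 0.220 and 0.136 to 0.156, ranges that do not overlap. In the Ldim_g counts the values were 0.189 and 0.146, with ranges of 0.175 to 0.197 and 0.136 to 0.153. The difference in spread was not tested, and the ranges share most of their fish.

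Set beside the other species, the pair was among the most different. It was chosen as the most divergent of the cleaners, with earlier results of these data known. Its high place therefore restates that choice in part. In a fit to 43 libraries of all 5 species, Hemigymnus and Thalassoma differed in 349 of 701 ENSONIT transcripts (49.8%, edgeR adjusted p below 0.05), against 322 for Halichoeres and Hemigymnus and 311 for Halichoeres and Thalassoma, the other pairs of facultative cleaners. Of the 10 species pairs, 1 had more, Thalassoma and the non-cleaner Coris with 360. Labrichthys and Thalassoma followed closely with 347, so the pairs with the most calls all held Thalassoma. At equal totals, in 41 libraries, Hemigymnus and Thalassoma came first, with 216 of 420 (51.4%) against 126 to 209 for the other 9 pairs. In the Ldim_g counts they also came first, with 485 of 752 (64.5%) against 365 to 473 as deposited, and 325 of 505 (64.4%) against 224 to 320 when thinned. Their median absolute log2 fold change was 0.53 for ENSONIT transcripts, with 0.40 to 0.54 over the other pairs, and 0.74 for Ldim_g genes, with 0.53 to 0.73. Thinned, the Ldim_g median was 0.70, below the 0.72 of Thalassoma and Coris. These comparisons share libraries, so no test of their order was made.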

How the data were processed

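The members, lists and tests were chosen with earlier results of these data known. Per the labels' protocols, RNA was extracted with a DNase step, fragmented, primed with poly-dT and amplified by PCR. Tools listed in the submitters' processing notes, with no role given, were cutadapt 2.8, SAMtools and BWA. Neither set's reference nor its counter is stated in the material used here. The authors deposited raw read counts for each fish, judging from the values: 26788 ENSONIT identifiers plus 1 unnamed line at 0, and 28134 Ldim_g identifiers plus 5 lines for unassigned reads. In the 18 libraries those lines held 57.5% unaligned, 35.6% outside genes, 2.43% of low quality, 0.00396% ambiguous and 0% not unique, with 4.48% in genes. The not-unique line was at 0% over all 46 libraries. As the counter is not stated, this does not show that every read aligned to 1 place only. Unnamed lines were left out of library sizes and tests. Identifiers were common to the species, so a count reflects alignment as well as abundance.

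Counts were fitted in R 4.3.3 with edgeR 4.0.16 (filterByExpr with a minimum count of 10 and a minimum total of 15, TMM, glmQLFit, glmQLFTest), with species as the only term, on the 18 libraries and all tested features, Benjamini-Hochberg threshold 0.05. Library sizes were recomputed over tested features. Each standard error was derived from the F statistic. DESeq2 1.42.0 was an alternative. Thinning drew counts without replacement (NumPy 2.4.6). Levels for correlations and for the 5 species were log2-CPM with a prior count of 2. The edgeR code was tested on simulated data. Named features followed the rule of the largest fold with at least 10 counts in the lower species and of the highest level at 2-fold or more, each without overlap and past the threshold. The cell type marker list could not be matched to identifiers and was not used. The labels state no batch. No 2 libraries of a species were identical, and the highest p of a chi-square test between 2 of them was 0.000228. Such a test cannot tell 2 fish from 2 libraries of 1 fish. Each library was counted as 1 fish, since each has its own sample number within its species. The labels do not state how the fish were caught or housed, so p-values measure the spread between these fish.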

Additional observations from a re-analysis of the deposited data

Results flagged for a closer look

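Single fish stood far from the others of their species in 3 of 32 groups of values (8 library measures and 8 named features, each in 9 fish of each species), where chance alone gives about 1 in 20. The unaligned share of Hemigymnus melapterus 1 was 48.8%, the lowest of its species, with the next fish at 50.7%. The share of reads outside genes in Thalassoma lunare 8 was 34.8%, the highest of its species, with the next at 32.9%. Hemigymnus melapterus 1 also had 24225 CPM of the most abundant Ldim_g gene at least 2-fold higher in Hemigymnus, where the next fish had 21353 CPM.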

How the results depend on the processing

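The 4 named ENSONIT transcripts and the 4 Ldim_g genes kept direction and threshold in all 214 alternative values (highest edgeR or DESeq2 adjusted p = 8.53e-05), and the 8 library measures did so in all 160. ENSONIT00000009162.1 and the Ldim_g gene with the largest excess had no value with all 20 libraries, where they failed the filter, and ENSONIT00000006853.1 had a log2 fold change of -0.93 at equal totals. Counts of calls differed between settings and are given with the number of features tested. In place of 279 of 534 ENSONIT transcripts (131 higher, 148 lower, 128 at 2-fold), no filter gave 1858 of 22683 tested (640, 1218 and 1758). The DESeq2 Wald test gave 1212 of 7291 (553, 659 and 1083). Both are smaller shares than the 52.2% of the main edgeR fit. A mean of at least 5 counts gave 465 of 916 (231, 234 and 249) and thinning 136 of 265 (70, 66 and 55). All 20 libraries gave 175 of 487, with 83 lower, and a 2-fold limit gave 128 of 534 (64 and 64). In place of 337 of 506 Ldim_g genes, 1830 of 13275 passed without a filter and 1302 of 5554 with DESeq2. With a mean of 5 counts 585 of 925 passed, and after thinning 207 of 306. Leaving out each fish gave 291 to 307 ENSONIT transcripts (137 to 153 higher, 145 to 158 lower, 139 to 150 at 2-fold) and 346 to 363 genes. The numbers tested were 555 to 562 transcripts and 523 to 536 genes, since a smaller group lowers the filter. With other size factors and in the 5-species fit the counts of calls past the threshold stayed within 1.5 times, but Ldim_g calls at 2-fold went from 89 higher and 68 lower to 148 and 131 in the 5-species fit, where more genes were tested. Leaving out the fish with the highest share of counts in 50 transcripts, Hemigymnus melapterus 1 and 9, gave 304 of 583 ENSONIT transcripts. Leaving out 1 and 2 gave 307 of 582. Both were added after seeing the data. Upper quartile scaling moved the median Ldim_g log2 fold change from 0.07 to -0.08, and no filter the ENSONIT one from -0.08 to -0.26. A fit with the sample number as a replicate block called 274 of 534 ENSONIT transcripts (124 higher, 150 lower, 128 at 2-fold) and 342 of 506 Ldim_g genes. The numbers showed little pairing of the fish. In the ENSONIT counts same-numbered fish deviated together (correlation over 0.1) in 1 of 9 pairs, and 2 of 9 Hemigymnus fish correlated best with their own number. In the Ldim_g counts these were 2 pairs (highest 0.266) and 1 fish. There the median correlation was 0.047 for equal numbers and -0.011 for unequal ones. At this depth, features below the filter could not be compared.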

Other observations

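Few identifiers were present in every fish of one species and in none of the other, and depth limits how many can be. At an equal total of 18301 counts, 19889 ENSONIT transcripts had a count in any of the 18 fish. Of these, 10 were detected in each of the 9 Hemigymnus fish and in no Thalassoma fish, 11 showed the reverse, and 605 were detected in all 18. At 19597 counts the numbers for Ldim_g genes were 11, 8 and 661, of 11662. At the deposited depth, where Thalassoma libraries were deeper, the ENSONIT numbers were 10, 38 and 945, of 22683. Absence here means no count at this depth.

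The most abundant transcripts were partly shared. Of the 10 most abundant tested ENSONIT transcripts in each species 5 were common to both, and of the top 50, 35. For Ldim_g genes 7 of 10 and 32 of 50 were common.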
